A study of Mus musculus with 3 samples.

Results

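The 48 genes described here are transcripts of the cell division cycle, taken by name from the 50262 gene rows of a single-cell table. Of these, 18 serve DNA replication in S phase, 27 serve G2 and mitosis (G2/M), and 3 (Stmn1, Hmgb2 and Tubb5) rise with division but are also used by cells that do not divide. They were read in tumor cells, microglia, macrophages, lymphocytes, neutrophils and endothelium of mouse glioblastomas, with their level by tumor stage and with S phase set against G2/M at matched depth.

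The tumors were grown in mice of a mixed background (129S4, SJL, Balb/cJ, FVBN/J and C57Bl/6J) aged 12 to 16 weeks. All carried a conditional human EGFR WT transgene (hsEGFR), the Cdkn2a -/- deletion and a conditional luciferase reporter, and a lentivirus carrying Cre was injected into the striatum, so every stage shares the loss of Cdkn2a, whose products restrain entry into S phase. Brains were taken at an early, medium and late stage and their viable cells were separated on CD45, a surface protein of leukocytes, before inDrop sequencing, which counts captured mRNAs by unique molecular identifiers (UMIs). There was 1 tumor sample a stage, the early one pooled from 2 mice, and 4 libraries for each stage and sort. The 3 deposited samples are sequencing runs that mix stages and sorts.

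A dividing cell first licenses and copies its DNA in S phase, using the Mcm2 to Mcm7 helicase, the sliding clamp Pcna and enzymes that make deoxynucleotides (Rrm1, Rrm2, Tyms, Tk1 and Dut). It then passes through G2 into mitosis under Cdk1 with cyclins B and A, and the chromosomes are separated by motors, kinetochore proteins and a ubiquitin ligase that works with Ube2c and Cdc20. E2F factors drive the S phase group and the DREAM and MuvB complexes time the G2/M group. Microglia, endothelium and oligodendrocytes of the adult brain are mostly quiescent, neutrophils divide as precursors and not once mature, and lymphocytes divide when activated.

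After filters and removal of called doublets, 17781 cells were used, with 5381839 to 10808099 UMIs for each stage and sort and a median of 1964 to 3078.5 UMIs a cell. Tumor cells were CD45- cells with at least 2 hsEGFR UMIs, and the other classes were clusters named from markers after leaving the cell cycle genes out of clustering. Endothelium and oligodendrocytes were taken from the CD45- libraries and microglia, macrophages, lymphocytes and neutrophils from the CD45+ libraries, so the tests of tumor cells and endothelium against microglia also compare sorts. In the endothelium test the class and the sort cannot be told apart. Within the CD45- sort, the endothelial sums over all stages were 115 CPM for G2/M and 311 for S phase. In the 4 CD45- microglia clusters these sums ran from 27.2 to 212.6 and from 256 to 459.9, so endothelium lay within both ranges. For tumor cells the G2/M sum also differed within each sort, though the stages were mixed unequally. It was 1780 CPM in 198 CD45+ cells with hsEGFR, of which 143 were medium and 54 late. CD45+ microglia stood at 657.6 medium and 460.2 late, and at 275.0 with their 4046 early cells pooled in. CD45- tumor cells, almost all medium or late, stood at 1954. The 4 CD45- microglia clusters, whose cells were mostly early, stood at 27.2 to 212.6. Levels are given as CPM, the UMIs of a gene or list in each 1000000 UMIs of the sum. Together the 6 classes held 10971 cells: 1159 tumor cells, 5832 microglia, 2181 macrophages, 1111 lymphocytes, 327 neutrophils and 361 endothelial cells. Only 4 tumor cells came from the early sample and 27 neutrophils from the late one, and both were left out of the tests, which used sums of at least 50 cells. Oligodendrocytes (2725 cells), mature cells taken not to divide, gave the background of the CD45- libraries. Among libraries of the same stage and sort, 974 cell barcodes recurred in 2104 cells, most in the late CD45- (653 of 2268 cells) and the medium CD45+ (753 of 3983 cells) sums. With 1 cell kept per barcode, the members called higher in the tests below went from 1 to 2 in CD45+ and from 31 to 33 in tumor cells. They went from 6 to 8 in macrophages and from 30 to 33 in lymphocytes, and stayed at 36 in neutrophils. Those called lower in endothelium went from 18 to 14. The sums of the microglia markers lay at 11090 to 12990 CPM in microglia and at 2137 to 2856 in macrophages, 989.1 to 2020 in lymphocytes, 566.8 to 2987 in neutrophils and 54.06 to 195.2 in tumor cells of the medium and late samples, and the part of such RNA in the values below was not tested.

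The promoters of 6 members are shown because they carry the short motifs counted by phase group below them. They are the 250 bases upstream of the start in RefSeq on GRCm38.p6, 5′ to 3′ on the gene's strand. Capitals mark exact matches, on either strand, to the CHR element TTTGAA, the CCAAT box, or the E2F sites TTTCCCGC, TTTGGCGC, TTTCGCGC and TTTGCCGC, and neighbouring matches can overlap. The first 3 are S phase genes and the last 3 are G2/M genes.
Pcna (S phase, sliding clamp; chr2:132253181-132253430, minus strand): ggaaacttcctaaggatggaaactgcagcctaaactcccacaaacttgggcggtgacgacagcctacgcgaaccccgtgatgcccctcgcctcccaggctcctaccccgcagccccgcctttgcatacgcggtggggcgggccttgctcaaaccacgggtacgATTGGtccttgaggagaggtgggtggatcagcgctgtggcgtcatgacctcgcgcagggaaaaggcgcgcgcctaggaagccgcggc
Rrm1 (S phase, large subunit of ribonucleotide reductase; chr7:102441445-102441694, plus strand): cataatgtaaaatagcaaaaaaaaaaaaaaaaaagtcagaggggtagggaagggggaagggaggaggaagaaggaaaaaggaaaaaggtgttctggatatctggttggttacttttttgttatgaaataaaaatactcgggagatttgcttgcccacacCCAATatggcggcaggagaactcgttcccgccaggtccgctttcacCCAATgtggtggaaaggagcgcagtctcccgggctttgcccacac
Mcm6 (S phase, helicase subunit; chr1:128359706-128359955, minus strand): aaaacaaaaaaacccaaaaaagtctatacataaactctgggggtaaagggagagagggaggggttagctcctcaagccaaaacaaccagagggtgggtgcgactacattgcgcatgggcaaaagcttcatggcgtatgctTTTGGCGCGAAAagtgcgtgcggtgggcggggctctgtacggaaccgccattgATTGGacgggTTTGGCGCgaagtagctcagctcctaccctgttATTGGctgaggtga
Top2a (G2/M, topoisomerase of mitotic chromosomes; chr11:99024190-99024439, minus strand): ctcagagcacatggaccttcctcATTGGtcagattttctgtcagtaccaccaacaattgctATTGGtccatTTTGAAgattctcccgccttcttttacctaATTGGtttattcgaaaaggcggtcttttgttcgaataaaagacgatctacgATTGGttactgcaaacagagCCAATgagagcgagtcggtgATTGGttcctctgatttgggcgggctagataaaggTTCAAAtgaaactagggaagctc
Ube2c (G2/M, ubiquitin-conjugating enzyme of mitotic exit; chr2:164769679-164769928, plus strand): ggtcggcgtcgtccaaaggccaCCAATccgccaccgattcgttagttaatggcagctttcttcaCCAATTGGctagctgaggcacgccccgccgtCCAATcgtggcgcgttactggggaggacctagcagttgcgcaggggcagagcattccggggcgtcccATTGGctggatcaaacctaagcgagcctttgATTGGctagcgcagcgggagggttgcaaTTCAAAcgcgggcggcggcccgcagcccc
Mki67 (G2/M, the Ki-67 antigen; chr7:135716380-135716629, minus strand): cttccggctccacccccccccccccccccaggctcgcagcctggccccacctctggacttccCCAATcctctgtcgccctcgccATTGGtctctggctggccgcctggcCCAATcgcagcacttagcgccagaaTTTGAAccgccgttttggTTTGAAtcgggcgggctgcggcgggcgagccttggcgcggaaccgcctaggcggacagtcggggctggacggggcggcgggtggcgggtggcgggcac

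In these windows Top2a held the CHR letters at -179 to -174 and at -23 to -18 from the start, Ube2c at -29 to -24, and Mki67 at -116 to -111 and -98 to -93. Pcna and Rrm1 held CCAAT boxes only, and Mcm6 held E2F letters at -110 to -103, -106 to -99 and -47 to -40. Over the members with a listed promoter, CHR was found in 8 of 24 G2/M promoters (33.3%) and in 1 of 17 S phase promoters (5.88%), against 16% of all 32851 listed promoters. The CHR promoters were those of Ccnb2, Cdc20, Cdk1, Kif11, Mki67, Prc1, Top2a and Ube2c, with Mcm2 the S phase gene. CCAAT was in 22 of 24 (91.7%) G2/M and 12 of 17 (70.6%) S phase promoters, against 33.8% of all. E2F letters were in 5 of 17 (29.4%) S phase promoters (Cdc6, Mcm5, Mcm6, Mcm7 and Uhrf1) and 1 of 24 (4.17%) G2/M promoters (Cdk1), against 1.86% of all. A match describes letters and is not evidence of binding.

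Among the S phase members, Pcna and Rrm1 were counted in every class, whereas Rrm2 and Mcm6 were near 0 in oligodendrocytes. Pcna stood at 85.1, 89.3 and 94.3 CPM in early, medium and late microglia, and at 118, 110 and 114 in oligodendrocytes. It was at 116 and 161 in medium and late tumor cells, at 66.5, 93.5 and 91.2 in macrophages, at 219, 149 and 246 in lymphocytes, at 27.9 and 151 in early and medium neutrophils, and at 118, 66.3 and 27.4 in endothelium. The ranges of tumor cells and oligodendrocytes overlapped for this gene, which also works in DNA repair. Rrm1, the large subunit of ribonucleotide reductase, stood at 63.5, 79.3 and 77.3 in microglia, at 54.5, 66.1 and 53.5 in oligodendrocytes, at 104 and 125 in tumor cells and at 115, 125 and 102 in lymphocytes. Rrm1 ran from 55.0 to 67.9 in macrophages, from 76.8 to 103 in the early and medium neutrophils and from 47.95 to 57.1 in endothelium. The ranges of microglia, macrophages and oligodendrocytes overlapped.

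Rrm2, the small subunit of the same enzyme, made only for replication, behaved otherwise. It stood at 1.80, 19.5 and 21.1 CPM in early, medium and late microglia, and at 0.548, 3.23 and 0 in oligodendrocytes. It was at 77.4 and 119 in tumor cells, at 9.17, 13.5 and 21.8 in macrophages, at 77.7, 77.7 and 92.5 in lymphocytes and at 27.9 and 140 in neutrophils. No Rrm2 UMI was seen in endothelium among 617318 UMIs, which allows up to 4.86 CPM. Tumor cells and lymphocytes lay above every microglial and macrophage value.

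Mcm6 stood at 7.19, 23.5 and 15.1 in microglia, at 20.6, 48.4 and 51.4 in macrophages, at 54.1 and 93.5 in tumor cells and at 97.1, 128 and 147 in lymphocytes. It was at 0 and 91.9 in early and medium neutrophils, at 12.2, 0 and 6.85 in endothelium and at 0.274, 0 and 1.50 in oligodendrocytes. Lymphocytes were the highest class and did not overlap tumor cells. Dut, which clears dUTP, stood at 3.12, 12.8 and 7.53 in microglia, at 11.5, 23.9 and 29.6 in macrophages, at 73.6 and 92.6 in tumor cells, at 103, 160 and 115 in lymphocytes, at 0 and 49.8 in neutrophils, at 32.7, 0 and 41.1 in endothelium and at 10.1, 13.4 and 11.5 in oligodendrocytes. Pclaf, a Pcna-binding factor, stood at 5.27, 12.1 and 21.1 in microglia, at 20.6, 27.3 and 31.2 in macrophages, at 74.6 and 85.0 in tumor cells, at 97.1, 114 and 89.3 in lymphocytes, at 20.9 and 140 in neutrophils, at 0, 4.42 and 13.7 in endothelium and at 8.49, 8.32 and 7.99 in oligodendrocytes. For both, tumor cells and lymphocytes lay above all microglial and macrophage values.

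The E-type cyclins bring cells into S phase. Ccne1 stood at 23.3, 28.9 and 35.1 CPM in microglia, at 36.7, 25.9 and 37.4 in macrophages, at 45.2 and 77.5 in tumor cells, at 37.5, 38.3 and 31.9 in lymphocytes, at 27.9 and 23.0 in neutrophils, at 4.08, 22.1 and 41.1 in endothelium and at 14.2, 18.9 and 21.0 in oligodendrocytes. Ccne2 stayed between 0 and 28.7 in every class and stage, with 15.8 and 22.1 in tumor cells and 6.47, 8.73 and 8.03 in microglia. Of the 10 other S phase members, Cdc6, the licensing factor, was the least counted in each class over all stages, with 71 UMIs in tumor cells, 3 in microglia and 0 in endothelium.

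Most G2/M members were low in oligodendrocytes and endothelium, with medians over the 27 of 1.15 and 1.62 CPM over all stages against 7.70 in microglia. Those over 20 CPM at any stage in either class were the kinetochore protein Cenpf, at 25.5, 21.3 and 16.5 in oligodendrocytes and at 40.8 in early endothelium (10 UMIs), Kif20a, at 15.9, 17.1 and 23.0 in oligodendrocytes and at 27.4 in late endothelium (4 UMIs), Ccna2, at 30.9 in medium endothelium (7 UMIs), Cdk1, at 34.3 in late endothelium (5 UMIs), and the kinesin Kif23, at 20.4 in early endothelium (5 UMIs). Top2a stood at 15.8 (95% Poisson interval 13.2 to 18.8), 96.0 (81.0 to 113) and 68.2 (57.3 to 80.7) CPM in early, medium and late microglia, where intervals cover counting error only. It was at 52.7, 81.1 and 128 in macrophages, at 182 and 302 in tumor cells, at 204, 226 and 217 in lymphocytes and at 133 and 318 in early and medium neutrophils. In endothelium it was at 4.08, 0 and 6.85 and in oligodendrocytes at 2.74, 1.39 and 6.495. Every lymphocyte value lay above every macrophage value, which overlapped those of microglia.

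Ube2c stood at 8.75, 49.7 and 19.6 in microglia, at 16.1, 43.9 and 42.1 in macrophages, at 119 and 217 in tumor cells, at 112, 115 and 60.6 in lymphocytes and at 97.7 and 295 in neutrophils. Mki67 stood at 10.3, 53.1 and 39.6 in microglia, at 39.0, 58.3 and 85.7 in macrophages, at 69.9 and 129 in tumor cells, at 126, 130 and 98.9 in lymphocytes and at 41.9 and 319 in neutrophils. In endothelium Ube2c was at 0, 0 and 6.85 and Mki67 at 4.08, 0 and 0, and in oligodendrocytes neither passed 5.50. Early microglia were the lowest sum of the other 5 classes for both genes.

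Cenpa, the histone of centromeres, stood at 12.1, 34.2 and 16.1 in microglia, at 16.1, 35.5 and 56.1 in macrophages, at 65.7 and 113 in tumor cells, at 81.8, 109 and 60.6 in lymphocytes and at 174 and 130 in neutrophils. Birc5, survivin of the chromosomal passenger complex, stood at 6.47, 34.9 and 32.1 in microglia, at 16.1, 43.4 and 34.3 in macrophages, at 79.7 and 114 in tumor cells, at 72.1, 89.9 and 28.7 in lymphocytes and at 83.7 and 128 in neutrophils. Cdk1 stood at 6.11, 30.2 and 26.1 in microglia, at 4.59, 34.1 and 38.2 in macrophages, at 52.7 and 104 in tumor cells, at 38.8, 60.7 and 54.2 in lymphocytes and at 48.9 and 137 in neutrophils. Tumor cells lay above all microglial and macrophage values for each of these 3 genes. Of the 21 other G2/M members, the spindle checkpoint kinase Bub1 was the least counted in tumor cells, with 105 UMIs, and in microglia, with 24. In endothelium 9 G2/M members had no UMI.

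The 3 broad members kept other patterns. Stmn1, which destabilizes microtubules and is used in neural cells, stood at 1980, 1655 and 1840 CPM in early, medium and late oligodendrocytes, at 392, 433 and 226 in endothelium and at 303 and 381 in tumor cells. It was at 31.9, 106 and 56.7 in microglia, at 52.7, 95.5 and 96.6 in macrophages, at 273, 231 and 185 in lymphocytes and at 48.9 and 166 in neutrophils. Its values in oligodendrocytes did not overlap those of any other class. Hmgb2, a chromatin protein, stood at 1096 and 2119 in neutrophils, at 670, 568 and 574 in lymphocytes, at 206, 255 and 170 in macrophages, at 75.8, 163 and 108 in microglia, at 213 and 330 in tumor cells, at 44.9, 92.8 and 75.3 in endothelium and at 7.94, 6.47 and 9.99 in oligodendrocytes. Tubb5, a beta tubulin, stood at 1134 and 1555 in tumor cells, at 673, 712 and 562 in lymphocytes, at 335, 436 and 730 in macrophages, at 339, 414 and 465 in microglia, at 321 and 287 in neutrophils, at 396, 517 and 528 in endothelium and at 174, 183 and 161 in oligodendrocytes. Neutrophils did not overlap any other class for Hmgb2, nor tumor cells for Tubb5.

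**Figure D1:**
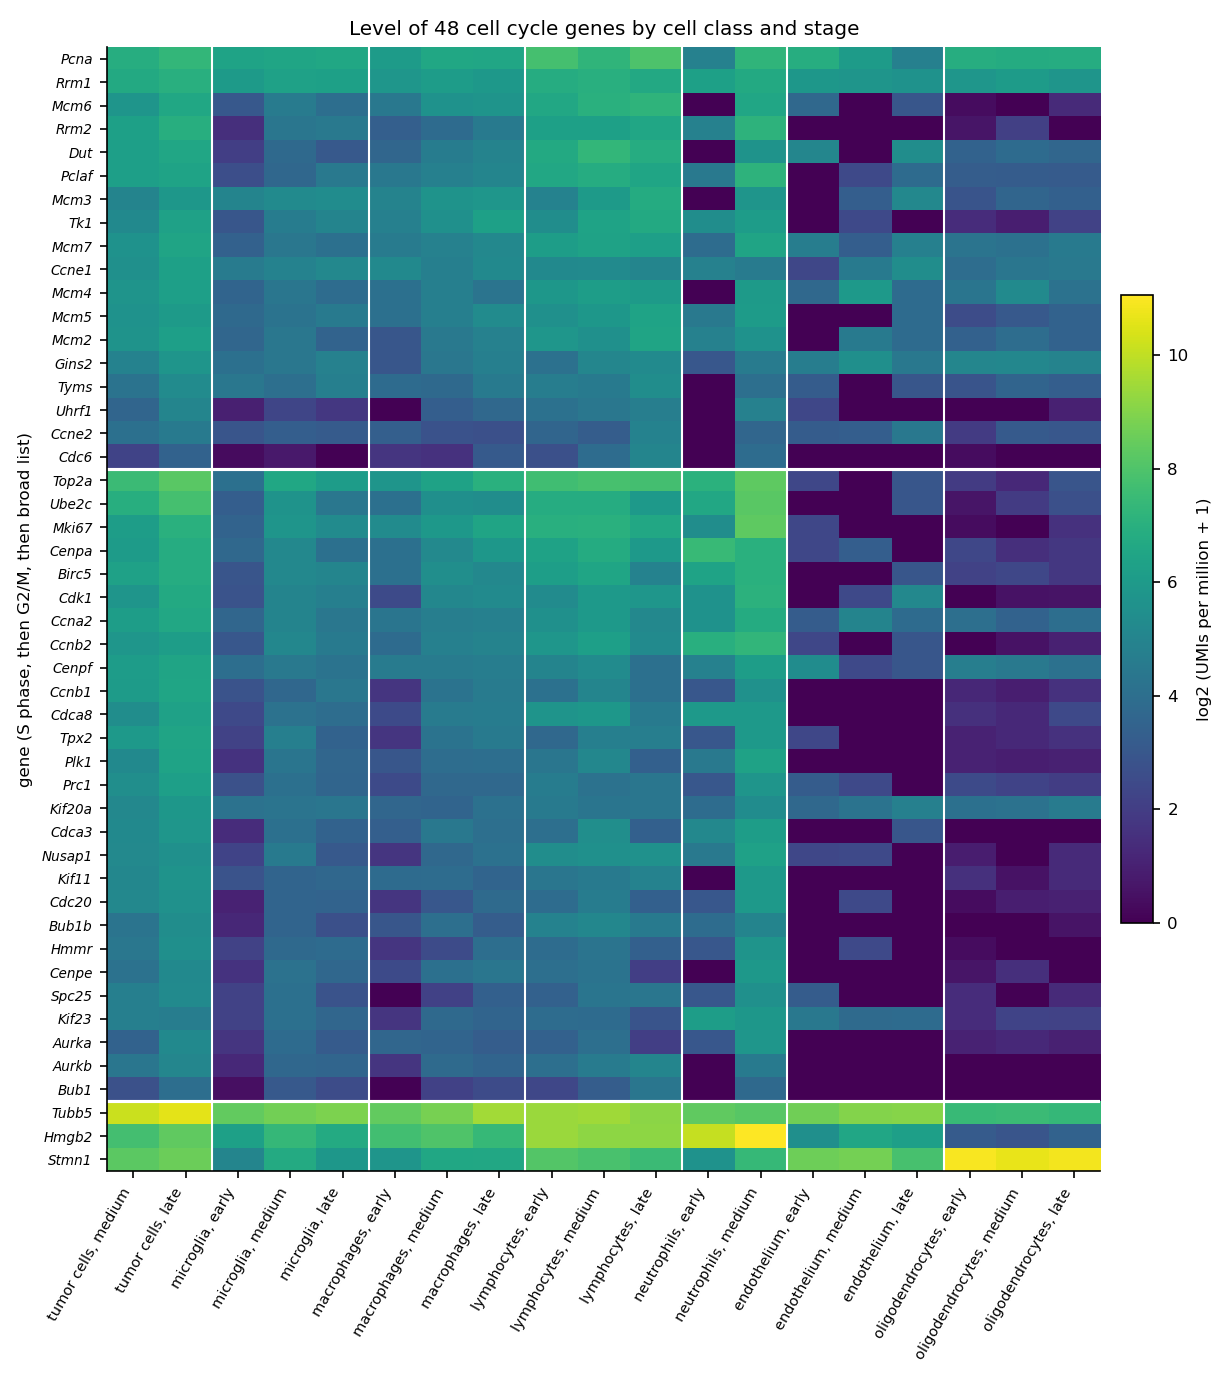
Heat map of the 48 members (rows, by phase list) in 19 sums of a cell class and stage (columns), colored by log2(CPM + 1). Low levels are dark and high levels light. Most G2/M rows are dark in oligodendrocytes and endothelium, with Cenpf, Kif20a and Ccna2 among the exceptions. Pcna and Rrm1 have counts in every class, and Stmn1 is highest in oligodendrocytes, at 1655 to 1980 CPM.

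Which classes carried more of these transcripts than microglia was tested on the 19 sums with edgeR's quasi-likelihood test, with the tumor sample as a block and Benjamini-Hochberg adjustment over 15911 genes, to which every adjusted p below for a class refers. Log2 fold changes are given with their standard error. Sums hold all cells of a class, so more cells in cycle and more RNA per cycling cell cannot be told apart.

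Tumor cells, compared in the medium and late samples, were higher than microglia in 11 of 18 S phase, 18 of 27 G2/M and 2 of 3 broad members, and lower in none, against 21.5% of all genes called higher. The median log2 fold change was 1.26 over S phase and 1.54 over G2/M members, against 0.05 over all genes. Dut rose by 2.99 (SE 0.51, adjusted p = 6.01e-05), Rrm2 by 2.32 (SE 0.56, adjusted p = 0.00387), Uhrf1, a keeper of DNA methylation, by 2.33 (SE 0.64, adjusted p = 0.00417), Pclaf by 2.12 (SE 0.41, adjusted p = 0.00011) and Mcm6 by 1.63 (SE 0.47, adjusted p = 0.00775). Cdc6 was called at 3.18 (SE 0.90, adjusted p = 0.00539), but rests on 3 microglial UMIs, and its ratio with all stages pooled, as for Cdc6 in the classes below, was 4.86 on the log2 scale with a counting interval of 3.47 to 7.39. Pcna (0.19, SE 0.42, adjusted p = 0.761) and Rrm1 (0.19, SE 0.26, adjusted p = 0.604) did not pass, nor did Ccne1 (0.55, SE 0.32, adjusted p = 0.185) or Ccne2 (0.64, SE 0.47, adjusted p = 0.299).

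Among G2/M members in tumor cells, Ube2c rose by 2.20 (SE 0.52, adjusted p = 0.00277), the mitotic kinase Plk1 by 2.02 (SE 0.51, adjusted p = 0.00266) and the checkpoint kinase Bub1b by 2.01 (SE 0.55, adjusted p = 0.00465). Cenpa rose by 1.67 (SE 0.40, adjusted p = 0.00155), Birc5 by 1.55 (SE 0.43, adjusted p = 0.0061), Top2a by 1.45 (SE 0.41, adjusted p = 0.00834) and Cdk1 by 1.17 (SE 0.39, adjusted p = 0.0168). Mki67 gave 0.96 (SE 0.54, adjusted p = 0.174). Stmn1 rose by 2.03 (SE 0.45, adjusted p = 0.00191) and Tubb5 by 1.22 (SE 0.25, adjusted p = 0.000245), while Hmgb2 gave 0.78 (SE 0.32, adjusted p = 0.0544). Without the late sample 5 members were called against 31 (13.2% of all genes in that fit), when 1 tumor sum remains and is assumed to vary like the others. Without TMM scaling 41 were called, and the median of all genes moved by 0.42.

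Around these members, 16 of 44 tested genes of cell cycle control were higher in tumor cells and 5 lower, against 21.5% and 18.5% of all genes. The D-type cyclin Ccnd2, which opens G1, stood at 635.1 CPM in tumor cells over all stages against 44.4 in microglia (log2 fold change 3.55, SE 0.46, adjusted p = 2.79e-06). The Cdk1-inhibiting kinase Wee1 was at 17.6 against 1.10 (4.09, SE 0.70, adjusted p = 2.67e-05), and Btg2, an antiproliferative gene also induced by stimulation, at 171.8 against 2285 (-3.77, SE 0.41, adjusted p = 2.95e-07). The transcription factor Mycn had 71 UMIs in tumor cells and none in microglia. It was 33.7-fold higher by a floor of 3 counts in microglia over all stages, which leaves out the counting error of the 71 UMIs.

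Macrophages differed from microglia in fewer members, with 5 of 18 S phase members (Cdc6, Dut, Mcm6, Pclaf and Tk1), 0 of 27 G2/M members and Hmgb2 called higher, against 8.99% of all genes. At an unadjusted p under 0.05, edgeR gave 3 G2/M members, and DESeq2 called 0 with 1 at that level. Medians were 0.54 for S phase and 0.50 for G2/M, against -0.10 over all genes. Dut rose by 1.80 (SE 0.52, adjusted p = 0.0212), Mcm6 by 1.57 (SE 0.45, adjusted p = 0.0188) and Pclaf by 1.25 (SE 0.41, adjusted p = 0.0374), and Cdc6 had a log2 ratio of 3.57 with a counting interval of 1.98 to 6.16. Hmgb2 rose by 1.00 (SE 0.29, adjusted p = 0.0171). Top2a gave 0.78 (SE 0.39, adjusted p = 0.198), Mki67 1.07 (SE 0.51, adjusted p = 0.184) and Cenpa 1.02 (SE 0.39, adjusted p = 0.0735). Without the late sample 3 members were called (6.07% of all genes in that fit), and without the block 3.

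In cell cycle control, 2 of 44 genes were higher in macrophages and 4 lower, against 8.99% and 7.35% of all genes. E2f1, an activator of S phase genes, was at 21.2 CPM against 5.24 (1.78, SE 0.49, adjusted p = 0.0108), and the Cdk4 and Cdk6 inhibitor Cdkn2c at 9.87 against 3.47 (1.70, SE 0.54, adjusted p = 0.0294). The inhibitor Cdkn1c was at 0.949 against 18.2 (-3.95, SE 0.75, adjusted p = 0.000633) and Myc at 9.49 against 35.1 (-1.51, SE 0.41, adjusted p = 0.0114).

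Lymphocytes were mostly cells of a cluster named T cells, with a cluster named B cells. They were higher than microglia in 12 of 18 S phase, 15 of 27 G2/M and all 3 broad members, against 13.5% of all genes, and lower in none. Medians were 2.00 and 1.44 for S phase and G2/M, against -0.18 over all genes. Dut rose by 4.19 (SE 0.49, adjusted p = 1.34e-06), Uhrf1 by 3.16 (SE 0.62, adjusted p = 0.000232), Pclaf by 3.13 (SE 0.40, adjusted p = 8.86e-07), Mcm6 by 3.08 (SE 0.44, adjusted p = 1.18e-05) and Rrm2 by 3.02 (SE 0.56, adjusted p = 0.000796). Cdc6 had a log2 ratio of 5.56 with a counting interval of 4.11 to 8.11. Pcna passed here, at 1.08 (SE 0.38, adjusted p = 0.0393), and Rrm1 gave 0.59 (SE 0.24, adjusted p = 0.0714).

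Bub1b rose by 2.66 (SE 0.54, adjusted p = 0.000391) in lymphocytes, Ube2c by 2.23 (SE 0.50, adjusted p = 0.00244) and the spindle protein Nusap1 by 2.22 (SE 0.46, adjusted p = 0.000467). Top2a rose by 2.11 (SE 0.40, adjusted p = 0.000362), Mki67 by 2.11 (SE 0.51, adjusted p = 0.0052) and Hmgb2 by 2.39 (SE 0.29, adjusted p = 8.03e-07). Leaving out 1 tumor sample at a time gave 23 to 29 called members, against 30, and 9.66%, 12.1% and 11.1% of all genes without the early, medium and late sample. Of cell cycle control, 13 of 44 genes were higher and 6 lower, against 13.5% and 15.9% of all genes. Ccnd2 was at 260.7 CPM against 44.4 (2.95, SE 0.42, adjusted p = 2.01e-05) and Ccnd1 at 30.2 against 215.6 (-2.96, SE 0.35, adjusted p = 3.39e-07), so the D-type cyclins differed in sign. The phosphatase Cdc25b (3.29, SE 0.64, adjusted p = 0.000274) and the licensing inhibitor Gmnn (3.02, SE 0.51, adjusted p = 3.87e-05) rose.

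Neutrophils, compared in the early and medium samples, were higher than microglia in 11 of 18 S phase, 24 of 27 G2/M members and Hmgb2, against 9.75% of all genes. These calls are for the class as a whole. Its cluster led by Retnlg had a far lower G2/M sum than its cluster led by Ltf, as given below with the stages. Medians were 1.73 for S phase and 2.44 for G2/M, against -0.44 over all genes. Uhrf1 rose by 3.42 (SE 0.78, adjusted p = 0.00146), Rrm2 by 3.36 (SE 0.66, adjusted p = 0.00148) and Pclaf by 3.19 (SE 0.47, adjusted p = 8.33e-06), and Cdc6 had a log2 ratio of 5.28 with a counting interval of 3.52 to 7.92. Ube2c rose by 3.28 (SE 0.55, adjusted p = 0.000296), the cyclin Ccnb2 by 3.06 (SE 0.41, adjusted p = 1.85e-06), Cenpa by 2.97 (SE 0.44, adjusted p = 1.17e-05), Mki67 by 2.89 (SE 0.58, adjusted p = 0.00155) and Top2a by 2.39 (SE 0.45, adjusted p = 0.000447). Hmgb2 rose by 3.85 (SE 0.33, adjusted p = 2.48e-09). Without the medium sample 7 members were called against 36 (4.27% of all genes in that fit), with 1 neutrophil sum of 52 cells left that is assumed to vary like the other classes, so the count rests on that sample. Of cell cycle control 17 of 44 genes were higher and 7 lower, against 9.75% and 14.5% of all genes. The repressor E2f8 rose by 4.60 (SE 0.57, adjusted p = 4.48e-07). Cdkn1c and E2f5 had no UMI in neutrophils, at least 6.07-fold and 4.32-fold lower by the floor of 3 counts, and Myc had 2 UMIs, a log2 ratio of -3.82 with a counting interval of -7.19 to -2.27.

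Against CD45+ microglia, endothelium went the other way, while its phase sums lay within the range of the CD45- microglia clusters given above. It was lower than microglia in 5 of 18 S phase members (Mcm3, Mcm5, Rrm1, Tk1 and Tyms), 12 of 27 G2/M members and Hmgb2, against 17.0% of all genes called lower, and higher in Stmn1, against 13.7% called higher. No S phase or G2/M member was called higher by edgeR, with 0 at an unadjusted p under 0.05, and DESeq2 called 1, Dut. With members at 0 set at their bound, medians were -0.80 for S phase and -1.55 for G2/M, against -0.25 over all genes. Tk1 had 1 UMI (log2 ratio -2.43, counting interval -8.32 to -0.51), Mcm5 had 2 (-1.87, -5.24 to -0.31) and Tyms 3 (-1.84, -4.35 to -0.50). Ccnb1, Cdca8 and Kif11 had none, at least 1.86-fold, 1.58-fold and 1.58-fold lower. Rrm1 fell by 0.84 (SE 0.31, adjusted p = 0.043), Hmgb2 fell by 1.07 (SE 0.35, adjusted p = 0.0222), and Stmn1 rose by 2.18 (SE 0.44, adjusted p = 0.00125). The summed oligodendrocyte markers stood at 2131, 839.3 and 342.5 CPM in early, medium and late endothelium and at 32.1 to 49.0 in microglia. Their part in the Stmn1 value was not tested. The 18 lower calls became 4 without the medium sample (12.7% of all genes in that fit), 9 without TMM scaling, which moved the median of all genes by 0.37, and 11 without the block. Of cell cycle control 4 of 44 genes were higher and 11 lower, with the inhibitor Cdkn2b at 89.1 CPM against 6.77 (3.56, SE 0.91, adjusted p = 0.00867). E2f3 and E2f2 had no UMI, at least 4.33-fold and 1.67-fold lower. Mycn had 7 UMIs and none in microglia, 44.7-fold higher by the floor of 3 counts in microglia, which leaves out the counting error of the 7 UMIs.

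The class comparisons share their microglial sums, so calls in several of them are not independent.

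**Figure D2:**
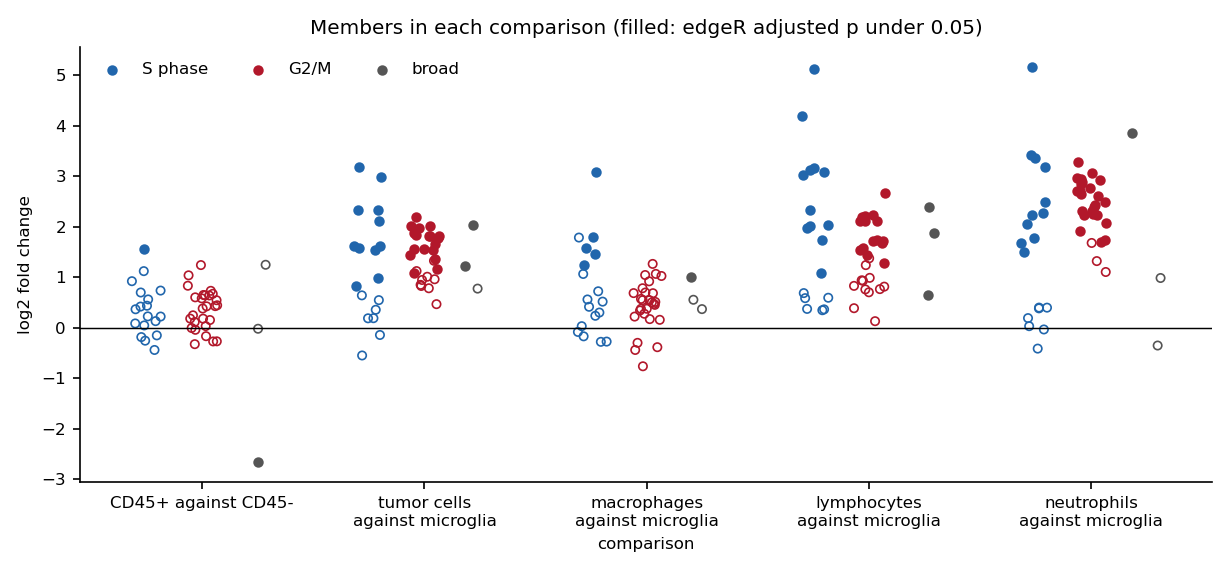
Log2 fold change of each member (points, by phase list) for CD45+ against CD45- cells and for tumor cells, macrophages, lymphocytes and neutrophils against microglia. Filled points have an edgeR adjusted p under 0.05, and the filled points lie above 0 in the 4 class comparisons, with 31, 6, 30 and 36 members.

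The CD45+ and CD45- sorts, each summed in 3 tumor samples, asked whether leukocytes as a whole carried more of these transcripts than the other cells. The S phase sum stood at 381.4, 894.6 and 645.9 CPM in early, medium and late CD45+ cells and at 373.3, 622.9 and 1030 in CD45- cells, and the G2/M sum at 249.3, 1048 and 705.7 against 196.7, 609 and 1487. CD45+ was higher early and medium and lower late, so the sorts overlapped. By edgeR over 19488 genes, Mcm3 alone was called higher in CD45+ (20.3% of all genes) and Stmn1 alone lower (25.7%). Mcm3 stood at 29.7, 59.3 and 50.5 against 8.15, 21.5 and 40.3 (1.57, SE 0.32, adjusted p = 0.00589), and Stmn1 at 70.0, 153.5 and 101.5 against 1125, 763.6 and 692.3 (-2.66, SE 0.40, adjusted p = 0.00141). Stmn1 did not overlap between the sorts, whereas the Mcm3 ranges overlapped across stages and CD45+ was higher within each. Without the block Mcm3 gave 1.40 (adjusted p = 0.0642) and no member was called higher. No G2/M member was called (1 at an unadjusted p under 0.05), while DESeq2 called 2, Ccnb2 and Mki67. Without the late sample, both its sorts left out, 16 members were called higher, against 16.7% of all genes in that fit, so the count rests on that sample. With 1 cell per shared barcode 2 were called. Of cell cycle control 8 of 45 genes were higher in CD45+ and 6 lower, both below the shares of all genes given above. Cell numbers of each type and RNA per cell cannot be told apart in these sums.

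How the phase sums moved with stage rests on 1 tumor sample a stage, so ratios carry exact Poisson intervals for counting error and no test. The median mitochondrial percent of cells also moved with stage, from 4.60 early to 3.95 and 2.96 in microglia, from 4.98 medium to 2.98 late in tumor cells and from 7.38 to 5.82 and 3.15 in oligodendrocytes, and its part in the stage values was not tested. In microglia, the S phase sum was 314.8, 453.4 and 470.2 CPM at the successive stages, and the G2/M sum 162.5, 657.6 and 460.2. Medium over early was 0.53 (0.40 to 0.65) on the log2 scale for S phase and 2.02 (1.90 to 2.14) for G2/M, and late over early 0.58 (0.47 to 0.69) and 1.50 (1.38 to 1.62). Thus the G2/M sum moved more than the S phase sum in the same cells, and late lay below medium for G2/M (-0.52, -0.65 to -0.38). Within run 2 the G2/M sum was 133.3, 686.1 and 507.4 and within run 3 186.3, 745.9 and 406, with early lowest and medium highest in both. Oligodendrocyte sums were 86.3, 76.2 and 97.9 for G2/M and 308.1, 359.9 and 327.7 for S phase. The early microglial sum thus lay within the oligodendrocyte range for S phase but above it for G2/M. The part of such a level, present without division, in the smaller S phase ratios was not tested.

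By gene, 23 of the 26 G2/M members with at least 20 UMIs were at least 2-fold higher in medium than in early microglia, and 6 of 16 S phase members, against 3.93% of all genes with that many. In late microglia 19 of 26 and 5 of 16 were, against 4.40%. Top2a was higher by 2.60 (2.25 to 2.95) in medium over early, Ube2c by 2.51 (2.02 to 2.99) and Mki67 by 2.36 (1.90 to 2.82). Rrm2 was higher by 3.42, from 15 to 29 UMIs in sums of unequal depth. Pcna gave 0.07 (-0.21 to 0.34) and Rrm1 0.32, the S phase members with the highest level in oligodendrocytes.

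In tumor cells the S phase sum was 887.3 and 1345 CPM in the medium and late samples, and the G2/M sum 1328 and 2170. Late over medium was 0.60 (0.53 to 0.67) for S phase and 0.71 (0.65 to 0.77) for G2/M. Within runs 1, 2 and 3 the G2/M sum was 836.1, 1421 and 1446 at the medium stage and 2156, 2340 and 2004 at the late one, higher late in each run. The summed microglia markers in tumor cells stood at 54.1 and 195.2 CPM and the macrophage markers at 44.3 and 154.2 in these samples, while the oligodendrocyte markers stood at 1356 and 701.8 and the progenitor markers at 4278 and 2833, and their part was not tested. At least 2-fold higher were 4 of 18 S phase and 6 of 27 G2/M members, against 6.79% of all genes, and the list medians were 0.70 and 0.73. Mki67 was higher by 0.88, Cdk1 by 0.97 and Top2a by 0.73, while Pclaf gave 0.19 (-0.07 to 0.45). In the medium sample, 48 tumor cells (16.2%) formed a cluster led by AI506816 that held a G2/M sum of 114.2 CPM, and the other clusters of that sample 1413 and 1629. The 4 early tumor cells held 22703 UMIs in all, too few to compare.

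In macrophages the S phase sum was 371.4, 547 and 646.8 and the G2/M sum 288.9, 599.6 and 722.3. Late over early was 0.80 (0.56 to 1.05) for S phase and 1.32 (1.05 to 1.60) for G2/M. The summed mast cell markers of the class stood at 0, 1.13 and 78.7 CPM at the successive stages, and their part was not tested. The clusters within the class changed with stage: 64.4% of early macrophages were in the Ms4a4c, Ly6i and Ccr2 cluster, 79.9% of medium ones in the Cxcl9 cluster and 83.2% of late ones in the Rnase2a and Arg1 cluster. Within the first of these, the G2/M sum was 313.5, 917.6 and 890.4. From early to late the G2/M sum of all macrophages was 302.4 and 791.8 within run 2 and 241.2 and 497.1 within run 3.

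In lymphocytes the S phase sum was 1120, 1291 and 1512 and the G2/M sum 1113, 1370 and 931.7. Late over early was 0.44 (0.27 to 0.60) for S phase and -0.25 (-0.45 to -0.06) for G2/M, so the phases moved apart late. At least 2-fold higher in medium were 3 of 18 S phase and 2 of 26 G2/M members (7.24% of all genes), and in late 3 of 16 and 1 of 16 (7.80%), with Birc5 (-1.26) and the passenger protein Cdca8 (-1.12) lower. The cluster named T cells made up 95.9% of early, 67.2% of medium and 88.7% of late lymphocytes. Its top genes included Xcl1, Il2rb and Nkg7, and no natural killer cell cluster was named, so such cells were not separated from it. The cluster named B cells was led by Igkc, Igha and Jchain. The summed B cell markers of the class stood at 367.6, 1301 and 8079 CPM and its T cell markers at 2991, 1695 and 2537. Within the T cell cluster alone the S phase sum was 1165, 1271 and 1559 and the G2/M sum 1155, 1253 and 1043. Within run 2 the late over early value for G2/M was -0.22 (-0.53 to 0.07) and within run 3 -0.14 (-0.43 to 0.13), intervals that include 0.

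In neutrophils the S phase sum was 293.1 and 1177 and the G2/M sum 1068 and 2608 in the early and medium samples. Their neutrophil markers stood at 140400 and 271600 CPM and their microglia markers at 2987 and 566.8, and the part of these in the phase sums was not tested. Medium over early was 1.99 (1.56 to 2.49) for S phase and 1.28 (1.05 to 1.54) for G2/M, which became 2.14 (1.55 to 2.85) in cells thinned to 1000 UMIs and 2.34 as a mean over cells. Mki67 was higher by 2.82 and Rrm2 by 2.17, while Cenpa gave -0.44. Neutrophils came in a cluster led by the secondary granule genes Ltf, Ngp and Lcn2 (200 cells, a G2/M sum of 2975 CPM) and a cluster led by Retnlg, Clec4d and Mmp8 (127 cells, 173.6). The latter held 82.7% of early neutrophils and the former 72.6% of medium ones. No single run held 50 early neutrophils, so no value within a run is given. In endothelium the S phase sum was 306.2, 304.8 and 328.8 and the G2/M sum 122.5, 97.2 and 130.2. Late over early for G2/M was 0.10 (-0.82 to 0.96), and 1.17 (0.38 to 1.99) with classes set per cell from marker UMIs. The S phase sums of oligodendrocytes, at 308.1, 359.9 and 327.7, were about those of endothelium.

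Shares of cells were compared after thinning each cell to 1000 UMIs, counting a cell as positive with at least 2 UMIs of a list. Tumor cells were deepest (median 6270 UMIs, against 1896.5 in microglia, 2469 in oligodendrocytes and 1438 in endothelium), and 13 tumor, 149 microglial, 2 macrophage, 30 lymphocyte, 1 neutrophil, 40 endothelial and 48 oligodendrocyte cells under 1000 UMIs were left out. Of tumor cells, 24.96% (22.5 to 27.6) were positive for S phase and 21.7% (19.4 to 24.2) for G2/M. In oligodendrocytes these shares were 5.60% (4.76 to 6.54) and 0.672% (0.399 to 1.06), which gives the background of the CD45- libraries, while no class of the CD45+ libraries was taken not to divide. Unthinned, tumor cells gave 65.6% and 45.0%, and oligodendrocytes 23.5% and 4.04%.

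Microglia gave 5.88% (5.28 to 6.52) for S phase and 2.39% (2.01 to 2.83) for G2/M. Their G2/M share was 1.24%, 5.79% and 4.37% at the early, medium and late stage, and their S phase share 5.19%, 8.06% and 6.92%. Within the P2ry12 cluster the G2/M share was 0.612%, 3.28% and 2.72%, and within the Cxcl10 cluster 2.81%, 12.3% and 15.9%. Within the Tnf cluster it was 1.57%, 11.4% and 2.04%. Early lay lowest in each of these clusters, with late close to early in the Tnf cluster. Macrophages gave 10.4% and 9.13%, lymphocytes 19.9% and 14.4%, and neutrophils 14.4% and 23.0%. In medium neutrophils 28.3% (22.8 to 34.4) were positive for G2/M. Endothelium gave 6.23% for S phase and 1.87% for G2/M, with an interval of 0.689 to 4.02 that overlaps the background, and 0 of 59 late endothelial cells were positive for G2/M, which allows a share of up to 5.085% by the floor of 3 counts and 6.06% by the Clopper-Pearson limit. Unthinned S phase and G2/M shares were 14.4% and 4.27% in microglia, 22.8% and 13.9% in macrophages, 34.7% and 22.0% in lymphocytes, 28.8% and 30.3% in neutrophils and 12.7% and 3.601% in endothelium.

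Set against each other, the G2/M share minus the S phase share was 8.59 points (3.81 to 12.5) in neutrophils. By stage it was 1.92, 11.3 and -3.70 in the 52 early, 247 medium and 27 late neutrophils, and for all stages it was 1.53 (-3.49 to 6.40) unthinned and 2.45 (-3.53 to 8.27) when 1 UMI made a cell positive. It was -3.23 in tumor cells, -3.48 in microglia, -5.46 in lymphocytes and -4.36 in endothelium, and -1.24 (-2.78 to 0.33) in macrophages, against -4.93 (-5.46 to -4.22) in oligodendrocytes. These sizes depend on depth and on the UMIs required, since unthinned they were -20.6 in tumor cells, -10.1 in microglia, -12.8 in lymphocytes, -9.14 in endothelium and -8.94 in macrophages, and with at least 3 UMIs -0.21 (-0.62 to 0.21) in microglia and -1.76 (-3.86 to 0.42) in lymphocytes. With at least 3 UMIs for a positive cell the value was 1.74 (0.48 to 2.95) in macrophages and 1.13 (-1.41 to 3.65) in tumor cells, so the sign turned in both. Of all UMIs of both lists, the S phase members held 31.2% in neutrophils, 38.5% in tumor cells, 47.97% in macrophages, 50.4% in lymphocytes, 56.6% in microglia and 73.0% in endothelium, against 79.1% in oligodendrocytes. In microglia this share was 66.0% early, 40.8% medium and 50.5% late. In the medium sample it was 31.1% in neutrophils, 40.05% in tumor cells, 47.7% in macrophages, 48.5% in lymphocytes and 75.8% in endothelium. There microglia lay below macrophages and lymphocytes, so the pooled order of the classes did not hold. The part of the 70 medium cells of the Tnf cluster in that microglial share was not tested.

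**Figure D3:**
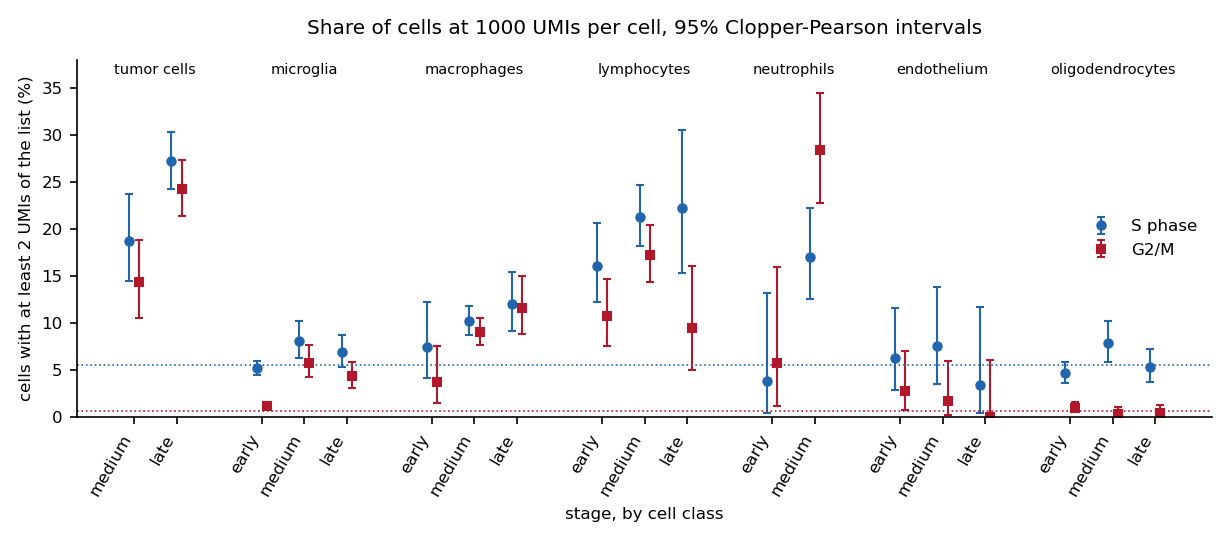
Percent of cells with at least 2 UMIs of the S phase and the G2/M list, in cells thinned to 1000 UMIs, by class and stage, with 95% Clopper-Pearson intervals as bars and the pooled oligodendrocyte share as dotted lines. Medium neutrophils stand highest for G2/M at 28.3%, and early microglia lie near the line at 1.24%.

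How each member's UMIs split by phase label was read in thinned cells of the 6 classes. It was measured by the share of a gene's UMIs found in cells whose other phase UMIs were mostly G2/M rather than mostly S phase. G2/M cells made up 31.3% to 39.9% of the cells assigned to either phase, depending on the member set aside. All 27 G2/M members lay above that share, from 63.8% for the kinesin Kif20a and 69.0% for Top2a to 90.4% for Ube2c and 91.8% for Ccnb1. Of the 18 S phase members 8 lay below it. They were Cdc6 at 17.4%, the replication factor Gins2 at 22.9%, Mcm6 at 24.8%, Mcm4 at 25.2%, Ccne2 and Mcm2 at 26.8%, Mcm3 at 30.8%, and Mcm5 at 34.4% of UMIs against 34.5% of cells. Within microglia 4 of the 14 S phase members with at least 20 UMIs lay below it. No such share was computed for genes outside the members. Over the pooled classes, the level of a gene by class and its split by phase label cannot be told apart.

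Pclaf (65.6%), Rrm2 (60.7%) and Tk1 (58.4%), which serve DNA synthesis, lay mostly in cells labelled G2/M, beside Hmgb2 (64.7%) and Stmn1 (62.2%), and Tubb5 lay at 51.2%. A cell whose only phase UMI is of Pcna or Rrm1 counts as an S phase cell, dividing or not. The label therefore does not place a cell, or a gene, in the cycle. Pcna was at 42.2% and Rrm1 at 46.8%. Many UMIs of some members lay in cells with no other phase UMI: 57.4% for Ccne1, 53.1% for Tyms, 49.9% for Rrm1 and 49.5% for Pcna, against 1.49% for Nusap1, 2.58% for Plk1 and 3.56% for Rrm2. Cells are not replicates, so these shares are a description.

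**Figure D4:**
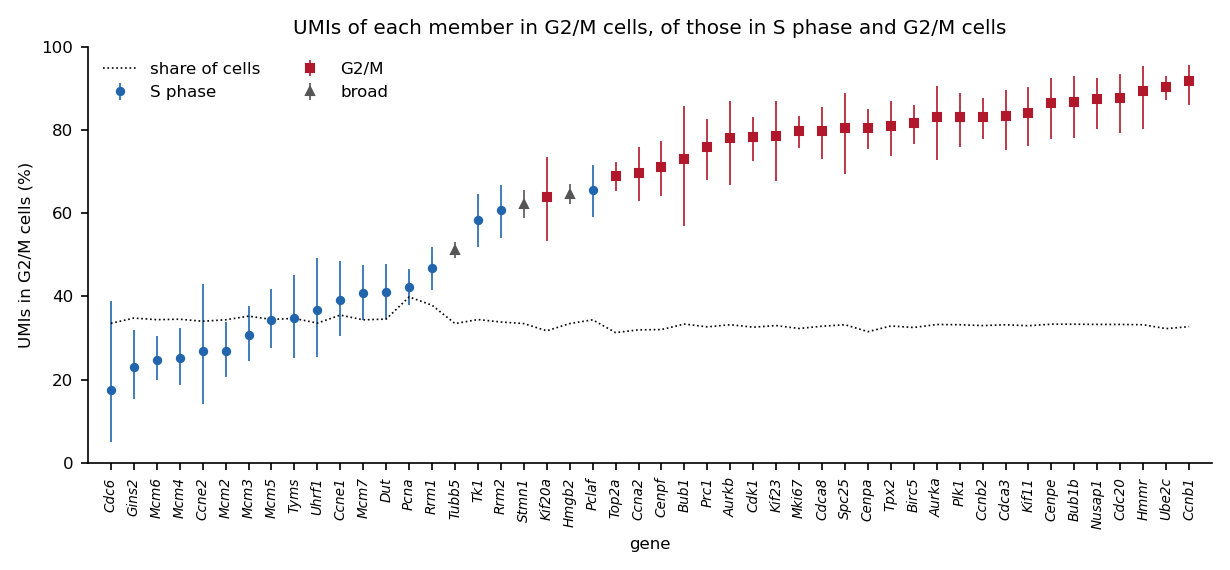
Percent of each member's UMIs found in cells leaning to G2/M, among cells leaning to either phase, as points with 95% intervals for counting error, genes ordered by value on the x axis and the share of cells leaning to G2/M as a dotted line. All G2/M members lie above the line, from 63.8% for Kif20a to 91.8% for Ccnb1, while the S phase members run from 17.4% for Cdc6 to 65.6% for Pclaf.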

How the data were processed

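The authors encapsulated CD45+ and CD45- cells on the inDrop platform, used bcbio-nextgen with RapMap against a GRCm38 transcriptome with transgene sequences added (mm10 per the labels), and deposited UMI counts for each cell that had not been normalized. An annotation of libraries, also deposited, is text (unit: other) with run, sort and stage, where large is the stage named late in this text. The study removed ambient RNA and doublets, but whether this preceded the deposited table is not given in the sources used here, so both may remain.

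Of 20811 deposited cells, 17894 had at least 500 UMIs, 500 genes and at most 20% mitochondrial UMIs. Scrublet (scanpy 1.11.5, Python 3.11.15) called 113 of 17786 cells (0.635%), which were removed, leaving 17781. The low rate means that doublets may persist. Cells were clustered with the Leiden algorithm (2000 variable genes, 40 components, 20 neighbors, resolution 2) without 242 cell cycle genes. A cluster was named from at least 3 of a type's markers at 2-fold, with limits partly set after seeing the data, and a difference from the study's cell types may come from these names.

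Counts were summed per tumor sample and sort or class (at least 50 cells) and tested two-sided with edgeR 4.0.16 (R 4.3.3; quasi-likelihood, TMM, filterByExpr, robust) with tumor sample as a block and Benjamini-Hochberg adjustment at 0.05. DESeq2 1.42.0 was an alternative. Both sorts come from the same tumor sample, and their deviations from the sort means correlated at 0.368, 0.273 and 0.284 within the early, medium and late sample over 19488 genes, so the block was kept. For class sums of the same sample such correlations were weaker, from -0.030 to 0.227 over 15911 genes, and the block was used there too. The sort fit had 6 sums with 2 residual degrees of freedom and the class fit 19 with 10. Stages were not tested. With the block, the p-values measure how sort or class differences vary across these 3 samples, pooled over the classes in the class fit. Each sample is a different stage, so this spread includes effects of stage and is not one between replicate animals. Intervals are 95% exact Poisson or Clopper-Pearson and cover counting error only, as do floors of 3 counts. Fits were tested on simulated data.

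A further allele carried by all mice is not reported here. The members and lists were chosen with earlier results of these data known. Named in full were the 6 S phase and 6 G2/M members with most UMIs, the 3 broad members, Ccne1 and Ccne2. In each class comparison the 3 called members of each phase and the 4 called genes of a list of 46 cell cycle control genes with the largest changes were named, as was any called member against its list. Alternatives were other scaling, filters, doublet handling, classes from marker UMIs, single runs, thinning depths and each sample left out. Keeping 1 cell per shared barcode and counting the unnamed Spp1 cluster as macrophages were chosen after seeing the data.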

Additional observations from a re-analysis of the deposited data

Results flagged for a closer look

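The G2/M sum moved in different directions from the early to the late sample in different leukocytes. Late over early was 1.50 on the log2 scale in microglia and 1.32 in macrophages, and -0.25 in lymphocytes. For lymphocytes the intervals within single runs include 0, and the B cell markers of the class also moved with stage, as given above. With 1 tumor sample a stage the difference between the classes was not tested.

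Cells outside the 6 classes also held G2/M transcripts above the 0.672% share of oligodendrocytes (CD45- libraries), in cells thinned to 1000 UMIs. A cluster of 95 CD45+ cells led by Elane, Prtn3, Mcpt2 and Mpo, genes of immature granulocytes and mast cells, held the largest share of these, 42.55% (32.4 to 53.2), with 69.2% positive for S phase, and 83 of its cells came from the medium sample. A neuronal cluster led by Dlx2, Igfbpl1 and Dlx6os1, genes of young inhibitory neurons, gave 34.02% for G2/M and 51.5% for S phase in 97 cells, of a cluster of 99 with 67 from the early sample. An unnamed cluster led by Fbln2, Thbs2, Crym and Tnc gave 29.55% among its cells that were not counted as tumor cells, and progenitor clusters led by Gpr17 and by Pdgfra gave 20.93% and 3.135%. The Fbln2 and Gpr17 clusters also held 489 and 576 of the 1159 tumor cells, which gave 24.02% and 22.14%. Whether the cells of these clusters under 2 hsEGFR UMIs were tumor cells was not tested. The cells of the CD45+ sort that carried hsEGFR gave 13.78% (198 cells), and dendritic cells led by Xcr1 gave 12.99%. The unnamed CD45+ cluster led by Spp1, Apoc1 and Lpl gave 7.905%, border macrophages led by Ccl7 and Cbr2 4.68%, and fibroblasts led by Dcn 2.917%. Of the 511 cells of the Spp1 cluster 304 were late, and the microglial and macrophage values above leave these cells out. Counting them as microglia was not tried.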

How the results depend on the processing

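Tests rest on 2 or 3 tumor samples a class, and sparse members limit endothelium (617318 UMIs) and early neutrophils (52 cells). Without the replicate block, that is without pairing by tumor sample, the members called higher in CD45+ went from 1 to 0, in macrophages from 6 to 3, and those lower in endothelium from 18 to 11. The block moved no other count of calls by over 1.5 times. With one tumor sample left out, counts of members called higher ranged from 1 to 16 in CD45+ (lower, 1 to 2), 5 to 35 in tumor cells, 3 to 9 in macrophages, 23 to 29 in lymphocytes, 7 to 39 in neutrophils and 1 to 2 in endothelium, and those lower in endothelium from 4 to 15. DESeq2 called 5 members higher in CD45+ and 2 in endothelium. In CD45+, one cell per shared barcode gave 2 higher and every deposited cell 3, and no TMM factors gave 3 lower. In macrophages every gene with at least 1 count gave 10. In endothelium no TMM factors gave 9 lower, and classes set per cell from marker UMIs gave 7. Without the medium sample the fitted signs of Cdc6 (-1.77), Dut (-6.19), Mcm6 (-7.15) and Uhrf1 (-4.23) turned in neutrophils, where the early sample had 0 UMIs and a floor of 20.94 CPM, above early microglia, so no lower level is shown. Of 1348 values of named genes under alternatives, 1226 kept their call, 118 lost it and 4 turned, and of 110 counts 92 stayed within 1.5 times.

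For stage ratios (log2), tumor cells gave 0.81, 0.68 and 0.41 for S phase within runs 1, 2 and 3, and for G2/M 1.36 within run 1, 0.47 within run 3 and 0.77 with hsEGFR of at least 1 UMI. Microglia gave for S phase 0.82 and 0.38 within runs 2 and 3, 0.35 thinned and 0.43 as a mean over cells, and for G2/M 1.93 and 1.12 within runs 2 and 3, 1.12 thinned, 1.24 as a mean over cells and 1.66 with marker classes. Macrophages gave 1.08 for S phase with marker classes, and for G2/M 1.95 with marker classes, 1.67 with doublets kept, 1.03 within run 3 and 1.66 with the Spp1 cluster. Lymphocytes gave 0.70 within run 3 and 0.26 as a mean over cells for S phase. Neutrophils gave 2.14 thinned and 2.34 as a mean over cells for G2/M, and endothelium 1.17 with marker classes.

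The S phase percent of phase UMIs became 37.3, 40.9 and 41.0 in tumor cells (run 2, run 3, thinned), 55.2, 57.9, 59.7 and 53.0 in microglia (run 2, run 3, thinned, without Pcna and Top2a), 50.6 and 50.6 in macrophages (marker classes, run 3), 54.0 and 54.0 in lymphocytes (run 3, thinned), 39.9 and 34.0 in neutrophils (marker classes, thinned) and 78.8 in endothelium (run 2). The G2/M minus S phase difference, in points, was at 2000 UMIs, unthinned, from 1 UMI and from 3 UMIs -10.1, -20.6, -12.7 and 1.13 in tumor cells, -9.29, -10.1, -15.6 and -0.211 in microglia, -7.01, -8.94, -9.04 and 1.74 in macrophages, and -11.9, -12.8, -16.4 and -1.76 in lymphocytes. In neutrophils it was 1.53 unthinned and 2.45 from 1 UMI, and in endothelium -13.3, -9.14 and -12.5 at 2000 UMIs, unthinned and from 1 UMI. S phase members leaning to S phase cells were 4 within microglia. The causes of these moves were not tested.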
